A study of Mus musculus with 4 samples.

Results

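Finer cluster 2 was 1 of 9 groups of microglia in the finer of 2 clusterings deposited with single-cell RNA-seq data from sorted mouse brain microglia. Its members were the cells that the deposited annotation gave the number 2, and they were 12176 of 74758 cells (16.3%), from all 20 mice. The cluster had no deposited name. Cells of the cluster had P2ry12 and Tmem119 at the second highest level of the 9 clusters and Fos and Egr1 at the highest, so the 4 genes used to describe it as immediate-early-high homeostatic microglia were present as that description says. Values below are compared with cluster 0 of the same clustering (16671 cells), the cluster highest in P2ry12 and Tmem119, and with all 62582 other cells.

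The study treated mice with a TREM2-activating antibody, 4D9, or with ATV:4D9, the same antibody fused to an Fc part that binds the human transferrin receptor and carries it across the blood-brain barrier. All 20 mice were TfRmu/hu, with a human sequence knocked into the mouse transferrin receptor, and each received 10 mg/kg of antibody intravenously 24 hours before sampling. There were 4 mice in each of 5 groups: WT given ATV:ISO (the isotype control), WT given ATV:4D9, AppSAA given ATV:ISO, AppSAA given 4D9 and AppSAA given ATV:4D9. AppSAA mice carry a humanized App gene with familial Alzheimer's disease mutations in the endogenous locus and are a model of amyloid without overexpression. An age of 8 months is listed for male AppSAA mice, without naming this experiment, and ages of the WT mice were given only as a range over several experiments. The isotype arm carries the label ATV-DNP02, which was read as ATV:ISO because no other arm could be it. The mice were captured in 4 pools, each with a mouse from all 5 groups, and 1 mouse, the WT ATV:ISO mouse of pool 4, was recorded as female. Cells were released from the tissue with an enzymatic brain dissociation kit and sorted. The sources differ on whether the sort was by CD11b alone or by CD45 and CD11b, and on whether cortex alone or cortex with hippocampus was taken.

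Immediate early genes are switched on within minutes of a stimulus without new protein synthesis. MAP kinase and calcium signals reach factors that already sit at their promoters, mainly SRF with its partners at CArG boxes and CREB at cAMP response elements (CRE), and the first products are transcription factors of the AP-1, EGR, NR4A and KLF families together with phosphatases and mRNA-binding proteins that end the response. Microglia, the resident macrophages of the brain, are marked at rest by P2ry12, Tmem119, Cx3cr1 and Sall1, and they are known to raise immediate early genes after injury, receptor signalling and also tissue handling.

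Promoters of the immediate early genes are shown first because these genes set the cluster apart as a group. The RefSeq promoter table (GRCm38.p6, 250 bases before to 50 after each start) had a window for 36 of the 44 genes in the 2 immediate early lists and for 13946 genes of the data file. The CRE, TGACGTCA on either strand, was in a window of 4 of the 36 genes (11.1%) and of 3.06% of all genes. A CArG box was in 3 of 36 (8.33%) against 1.61%, an NF-kB site in 7 of 36 (19.4%) against 11.8%, and an AP-1 site, TGANTCA, in 2 of 36 (5.56%) against 7.13%. Among the 6505 genes with a window that were described against cluster 0, the shares were 3.77% for the CRE, 1.52% for the CArG box, 12.1% for the NF-kB site and 5.6% for the AP-1 site. Of the 101 genes described below as higher than in cluster 0, 76 had a window. The CRE was in 6 of the 76 (7.9%), the CArG box in 3 (3.95%), the NF-kB site in 19 (25%) and the AP-1 site in 7 (9.21%). The window of Fos matched the NF-kB site and no other of these motifs. These counts describe letters in a window, and several genes had more than 1 window. The 4 windows below, each the 250 bases before the start, come from genes that were higher than in cluster 0 and hold 1 of these motifs. Capitals mark the CRE in Dusp1 (chr17:26508473-26508722, minus strand) and Ppp1r15a (chr7:45526269-45526518, minus strand), the CArG box in Zfp36 (chr7:28379229-28379478, minus strand) and a sequence matching the NF-kB site in Ier3 (chr17:35821463-35821712, plus strand).
Dusp1: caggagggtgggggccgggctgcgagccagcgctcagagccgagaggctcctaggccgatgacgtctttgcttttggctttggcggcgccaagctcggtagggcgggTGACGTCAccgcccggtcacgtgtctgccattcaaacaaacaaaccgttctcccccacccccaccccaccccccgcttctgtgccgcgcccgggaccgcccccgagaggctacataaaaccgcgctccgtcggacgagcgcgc
Ppp1r15a: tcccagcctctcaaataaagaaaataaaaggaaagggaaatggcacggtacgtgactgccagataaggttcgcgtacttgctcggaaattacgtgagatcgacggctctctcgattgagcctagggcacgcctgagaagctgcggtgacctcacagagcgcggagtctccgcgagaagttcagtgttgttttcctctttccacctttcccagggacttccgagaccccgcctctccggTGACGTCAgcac
Zfp36: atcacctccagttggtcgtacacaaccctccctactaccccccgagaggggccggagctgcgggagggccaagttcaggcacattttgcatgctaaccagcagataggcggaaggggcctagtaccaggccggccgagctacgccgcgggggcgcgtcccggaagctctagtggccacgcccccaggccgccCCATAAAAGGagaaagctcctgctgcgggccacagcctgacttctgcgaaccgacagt
Ier3: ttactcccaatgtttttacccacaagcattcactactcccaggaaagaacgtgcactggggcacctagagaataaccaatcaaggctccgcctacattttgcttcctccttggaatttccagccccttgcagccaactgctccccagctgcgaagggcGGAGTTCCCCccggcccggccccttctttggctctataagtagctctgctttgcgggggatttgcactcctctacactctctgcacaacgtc

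In the gene models, genes of the 2 immediate early lists were short, with a median span of 4.28 kb and a median of 3 exons. The 8083 genes described against cluster 0 had a median span of 23.8 kb and a median of 9 exons.

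The share of a mouse's cells that lay in the cluster was highest in WT ATV:ISO mice and lowest in both ATV:4D9 groups. In WT ATV:ISO mice it was 41.1%, 35.1%, 36.7% and 34.8% in pools 1 to 4 (36.9% ± 2.94, SD, n = 4). In WT ATV:4D9 mice it was 3.24%, 3.92%, 2.59% and 3.19% (3.24% ± 0.544). The 2 groups did not overlap, and the same order held within each pool. In AppSAA mice the shares were 28.0%, 19.6%, 22.6% and 24.7% with ATV:ISO (23.7% ± 3.51). They were 20.4%, 23.9%, 22.9% and 25.1% with 4D9 (23.1% ± 2.01), within the range of ATV:ISO. With ATV:4D9 they were 1.04%, 4.25%, 1.62% and 3.00% (2.48% ± 1.44), below every other AppSAA mouse. Genes that define the cluster can differ between groups, so no test was made on these shares. Of cells in clusters 0 and 2 together, cluster 2 held 36.6% to 60.5%, with group means of 38.8% (WT ATV:ISO), 54.4% (WT ATV:4D9), 43.1% (AppSAA ATV:ISO), 43.1% (AppSAA 4D9) and 49.4% (AppSAA ATV:4D9), so the low shares under ATV:4D9 were shared by cluster 0.

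Summed counts of the cluster rested on 39 to 1385 cells and 357771 to 1.37121e+07 UMIs (unique molecules) per mouse, and ATV:4D9 mice of either genotype had 39 to 170 cells. A cell of the cluster held 1121 to 44260 UMIs, with a median of 8655.5. The median UMI total per cell was above that of cluster 0 in 20 of 20 mice, by a ratio of 1.11 to 1.51 (median 1.20), and the mitochondrial share was below it in 18 of 20 (median ratio 0.938). Markers of other cells were low: summed CPM (UMIs of a gene per 1000000 UMIs of a sum) over the list was 8.39 to 32.6 for perivascular macrophages, 5.26 to 14.0 for monocytes, 2.80 to 23.6 for neutrophils, 0 to 5.04 for T and NK cells, 0 to 2.95 for neurons and 8.39 to 22.9 for endothelial cells. Oligodendrocyte markers had 54.7 to 111, astrocyte markers 80.5 to 170.1 (mostly Slc1a3) and B cell markers 218 to 309 (mostly Ighm and Cd79b). The part of these differences in the results below was not tested. In all, 543 barcodes occurred in more than 1 pool, and for 13 of them both cells were in the cluster.

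**Figure D1:**
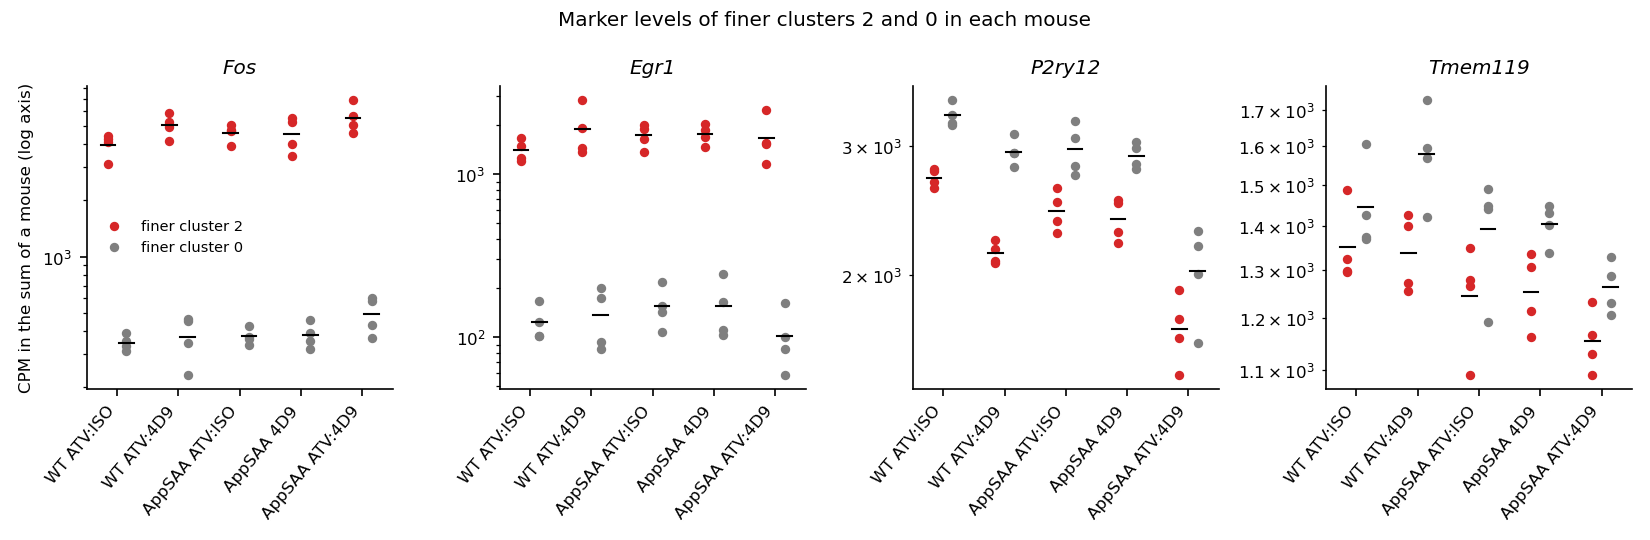
CPM of Fos, Egr1, P2ry12 and Tmem119 (log axis) in the summed cells of finer cluster 2 (red) and finer cluster 0 (gray), 1 point per mouse and 4 mice in each group, with a black line at each group mean. Fos and Egr1 in cluster 2 lie above every value of cluster 0, while P2ry12 and Tmem119 overlap.

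Fos, an AP-1 subunit, stood at 3119.5 CPM or more in every mouse in cluster 2. Its CPM was 4429, 4093, 4265 and 3119.5 in WT ATV:ISO mice, and 4957, 5838, 5224 and 4164 in WT ATV:4D9 mice. In AppSAA mice it was 5048, 4705, 4734 and 3897.5 with ATV:ISO, 5241, 5504.5, 4003 and 3443 with 4D9, and 6909, 5644, 5062 and 4575 with ATV:4D9. The groups overlapped, and the mouse of pool 4 was the lowest in each of them. The mean was 4743 ± 880 (SD, n = 20) against 393 ± 87.1 in cluster 0, where the highest mouse had 597, so the clusters did not overlap. Within mice the mean log2 ratio was 3.69 ± 0.38. Egr1, a zinc finger factor with the same kind of promoter control, had 1692 ± 423 CPM against 135 ± 49.0, a log2 ratio of 3.79 ± 0.37. The homeostatic markers were close to cluster 0. P2ry12, a purine receptor that guides microglial processes, had 2273 ± 376 CPM against 2829 ± 470 (log2 ratio -0.23 ± 0.08), lower in 20 of 20 mice, and Tmem119 had 1269 ± 107 against 1417 ± 138 (-0.07 ± 0.09), lower in 16 of 20. Cell clusters were built on these genes, so ratios between clusters are given as descriptions without a test.

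Among 8083 genes with at least 10 CPM, 101 (1.25%) were higher than in cluster 0 in every mouse with a mean log2 ratio of at least 1, and 0 (0%) were lower by that measure. At any size, 323 genes (4.00%) were higher in every mouse and 104 (1.29%) were lower. Of the 101, 42 belonged to 3 gene lists (immediate early transcription factors, other immediate early and feedback genes, and NF-kB feedback genes with cytokines and chemokines). The 10 highest ratios among genes of at least 50 CPM were those of Egr3 (4.28 ± 0.97), Klf2 (3.93 ± 0.61), Atf3 (3.86 ± 0.38), Egr1, Fos, Ier2 (3.68 ± 0.44), Dusp1 (3.51 ± 0.54), Fosb (3.34 ± 0.48), Nfkbiz (3.06 ± 0.37) and Il1b (2.94 ± 0.66). All but Il1b had no overlap in CPM between the clusters. They were picked for the highest ratios between clusters built on such genes, so their lack of overlap is no further result. Genes without overlap were not counted over all 8083. The 10 lowest ratios were small, from Krit1 (-0.61 ± 0.37), Gm34589 and Gm26917 (both -0.47) and Arl10 (-0.42) to Sort1, Dpy19l4, Tia1, Ddx23, 3222401L13Rik and Ccnt2 (-0.38 to -0.37), and each overlapped between the clusters.

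Of the immediate early transcription factors, 14 of the 16 with at least 10 CPM were higher than in cluster 0, with a median log2 ratio of 2.82 against -0.00 over all genes. Jun, the partner of Fos in AP-1, had the highest level of the list (6571 CPM against 1244, ratio 2.49 ± 0.25), followed by Fos, Junb (4281 against 1036, 2.13 ± 0.20) and Jund (3849 against 934, 2.13 ± 0.22). The nuclear receptor Nr4a1 had 173 CPM against 26.0 (2.93 ± 0.51). Cebpd (0.79) and Myc (0.85) were the members under a ratio of 1. Lower level members such as Nr4a2 and Maff were under 10 CPM and were not counted.

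Other immediate early and feedback genes, which end or shape the response, were higher for 16 of 22 members (median 1.83). Btg2, which slows proliferation, had 3345 CPM against 651 (2.47 ± 0.27). Rhob, a small GTPase, had 3091 against 1186.5 (1.47 ± 0.18), and Zfp36, which destabilizes cytokine mRNAs, had 3059 against 692 (2.25 ± 0.24). Dusp1, a phosphatase that inactivates MAP kinases and whose promoter holds the CRE printed above, had 1570 against 152. Ppp1r15a, which has the same element and restores translation after stress, had 360.0 against 72.0 (2.42 ± 0.37), and Socs3, an inhibitor of cytokine receptors, had 667 against 107 (2.70 ± 0.42). The other 6 members, Zfp36l2, Btg1, Dusp6, Rgs2, Rgs1 and Trib1, had ratios of 0.63 to 1.00.

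Among NF-kB feedback genes, cytokines and chemokines, 12 of 20 members were higher (median 1.84). The chemokine Ccl4 had 3113 CPM against 566 (2.54 ± 0.33), the inhibitor Nfkbia had 1643 against 300 (2.54 ± 0.27), and Ccl3 had 1465 against 355 (2.16 ± 0.28). Cytokine levels were lower, with 471 CPM for Il1a, 361 for Il1b and 248 for Tnf. The NF-kB subunits differed less, with ratios of 0.07 for Nfkb1, 0.26 for Rel and 0.68 for Relb.

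Kinases and factors upstream of the immediate early genes were near the level of cluster 0. None of 14 members was higher or lower (0 of 14), and the median log2 ratio was 0.01, with Mapk3 at 0.06, Creb1 at 0.06 and Syk, a kinase downstream of TREM2, at 0.02. Their summed CPM, which was not TMM-scaled, was below that of cluster 0 in 17 of 20 mice, by a median ratio of 0.952. Among heat shock chaperones 1 of 12 was higher, Dnajb1 (1.21 ± 0.49), and the median was 0.18. At any size 5 of 12 were above 0 in every mouse, where 4.00% of all genes were, and the summed CPM of the list was above that of cluster 0 in 20 of 20 mice, by a ratio of 1.00 to 1.37 (median 1.16). Hspa1a had 0.91 ± 1.02 and Hspa8 0.49 ± 0.20.

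**Figure D2:**
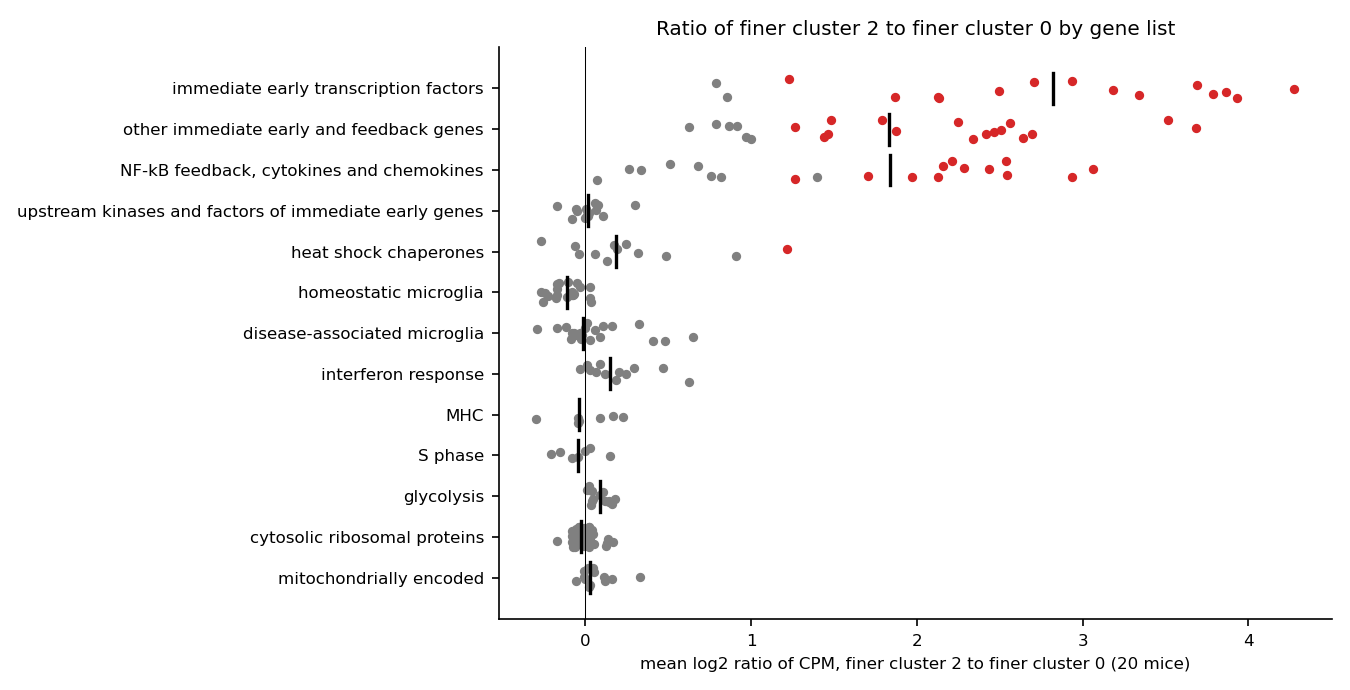
Mean log2 ratio of CPM in finer cluster 2 to finer cluster 0 over 20 mice, 1 point per gene with at least 10 CPM, by gene list. Red points are above 0 in every mouse with a mean of at least 1 and black bars are list medians. The 2 immediate early lists (medians 2.82 and 1.83) and the NF-kB list (1.84) lie to the right, and the other lists lie near 0.

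Genes of the homeostatic list had ratios between -0.26 and 0.04 (median -0.11, 0 of 20 higher or lower), and 6 of 20 were below 0 in every mouse, where 1.29% of all genes were. Cx3cr1, the fractalkine receptor, had 4240 CPM against 4642, and Sall1, a transcription factor of microglial identity, had 314 against 376. Members below 0 in every mouse included P2ry12, Slc2a5 (-0.26), Fcrls (-0.26) and P2ry13 (-0.18). The 44 immediate early genes took 4.80% ± 0.452 of all UMIs in cluster 2, 1.12% ± 0.0868 in cluster 0 and 1.57% ± 0.221 in the other cells, so CPM of all other genes is relative to a smaller remainder in cluster 2. Genes of the disease-associated state (0 of 22) and of the interferon response (0 of 12) were neither higher nor lower by the measure of a mean log2 ratio of at least 1, with medians of -0.01 and 0.15. At any size, 2 of 22 disease-associated genes and 1 of 12 interferon genes were above 0 in every mouse, where 4.00% of all genes were.

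The other 59 of the 101 genes were in none of the 3 lists, and those named here were picked after their values were seen. They included the replacement histone gene H3f3b (ratio 1.94) and the linker and core histone genes Hist1h1c (2.55), Hist1h1d (1.81), Hist1h2bc (1.64), Hist1h1e (1.52) and H1f0 (1.46). The glucocorticoid-responsive gene Tsc22d3 (2.54), the GTPase gene Gem (2.57), the secreted protease gene Adamts1 (2.46), the CBP-binding coactivator Cited2 (2.19) and the nuclear-retained RNA Neat1 (2.13) were also higher. Cell death regulators of the BCL2 family stood among them, with Mcl1 at 1.33, Bbc3 at 1.30 and Pmaip1 at 2.08, as did the cell cycle inhibitor Cdkn1a (1.61).

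The immediate early genes were also described cell by cell. Cell clusters were built on these genes, so a difference was built in, and the values describe its size and overlap only. Every cell of both clusters was thinned to 4000 UMIs, which left out 252 and 961 shallower cells of clusters 2 and 0. Of 8 immediate early genes (Fos, Jun, Junb, Egr1, Ier2, Atf3, Dusp1 and Nr4a1), a cell of cluster 2 then had a UMI of 6.44 ± 0.208 (SD over 20 mice) and a cell of cluster 0 of 3.49 ± 0.380. Fos was seen in 93.8% of cells against 49.8%, Egr1 in 78.5% against 28.8%, Ier2 in 75.9% against 23.3% and Nr4a1 in 32.6% against 9.11%. Unthinned, Fos was seen in 96.8% against 65.9%. The 8 genes together had 90.6 UMIs per thinned cell against 12.5. All 8 genes were seen in 20.1% of cells of cluster 2 and 0.338% of cells of cluster 0 and exactly 3 in 2.80% against 27.4%. All cells were taken as microglia, so no cell type that should lack Fos was at hand to measure free RNA. The lowest Fos level of the 9 clusters was 143.5 CPM, in cluster 8.

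**Figure D3:**
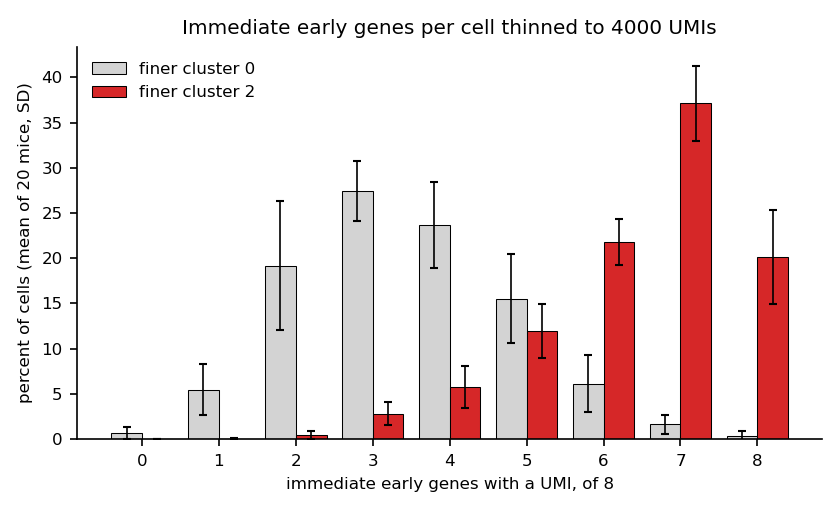
Share of cells (percent, mean of 20 mice with SD) by the number of 8 immediate early genes with at least 1 UMI, in cells thinned to 4000 UMIs. Cluster 0 (gray) peaks at 3 genes (27.4%) and cluster 2 (red) at 7 genes (37.1%), and the distributions overlap, with 1.62% of cluster 0 at 7 genes and 2.80% of cluster 2 at 3.

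Across the 9 clusters, cluster 2 had the highest sums of the immediate early transcription factors (26485 ± 2760 CPM, SD, n = 20) and of the other immediate early genes (21489 ± 2248). Next were cluster 1 for the factors (10825 ± 1823) and cluster 3 for the others (10431 ± 1237, 17 mice). For the homeostatic sum it ranked second, with 83737 ± 6737 against 95368 ± 7701 in cluster 0 and 64147 ± 10172 in cluster 1. For NF-kB feedback genes and cytokines it was the fifth, at 9623 ± 2020, below cluster 5 (15142 ± 8020) and cluster 1 (11435 ± 1740). Clusters 7 and 3, its neighbours in that order, differed from it by less than its SD. Means over clusters rest on different sets of mice, 20 in cluster 2 but 8 in cluster 4 and 16 in cluster 7. Ranks can therefore reflect the mix of groups. In cluster 2 the NF-kB sum was 7137 CPM in WT ATV:ISO and 10714 in WT ATV:4D9 mice. It was 9275, 9621 and 11366 in AppSAA mice given ATV:ISO, 4D9 and ATV:4D9. The sum of disease-associated genes in cluster 2 was the lowest of the 9, 31752 ± 2057 CPM against 33543 ± 2377 in cluster 0. Within mice it was lower than in cluster 0 in 20 of 20, by a ratio of 0.900 to 0.999 (median 0.940). These sums were not TMM-scaled, and immediate early genes took 4.80% of UMIs in cluster 2 against 1.12% in cluster 0. In TMM-scaled log2 ratios the median of this list was -0.01, and 0 of 22 genes were below 0 in every mouse.

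**Figure D4:**
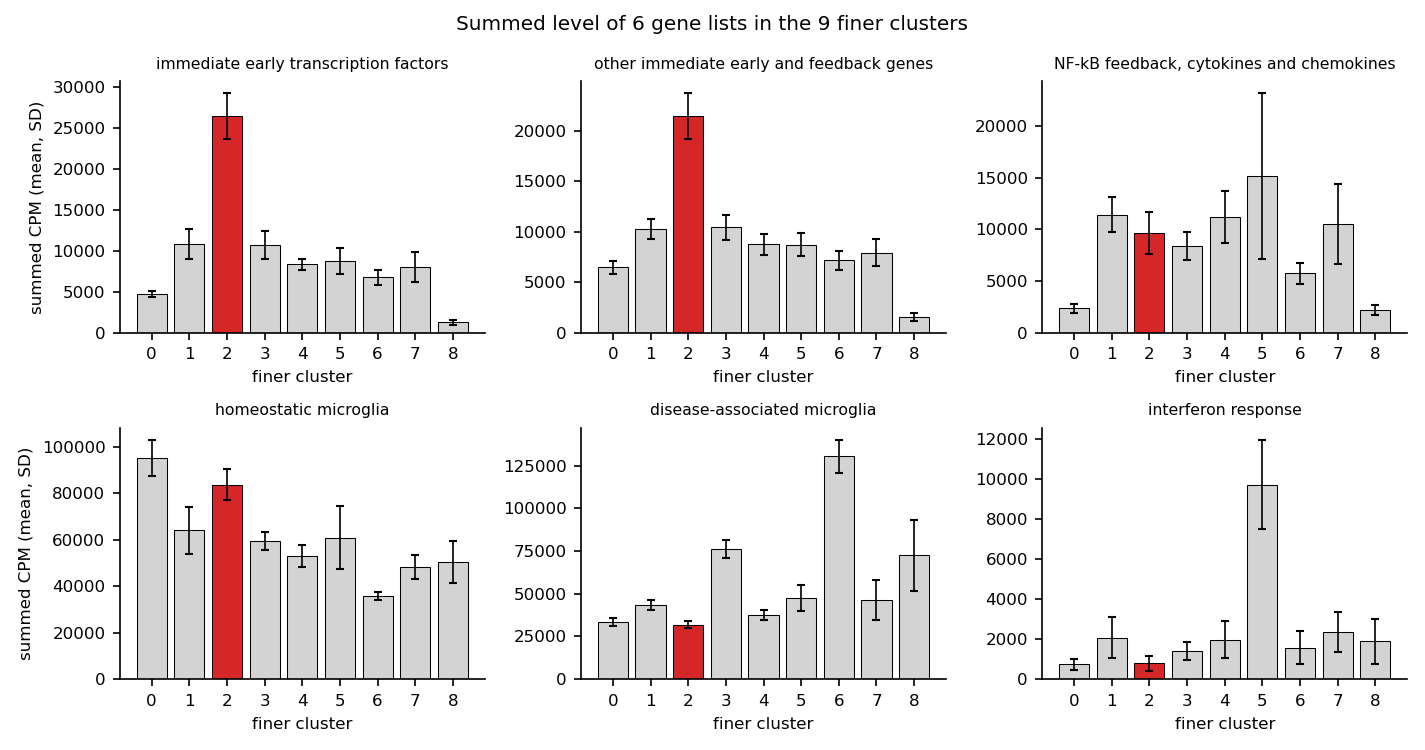
Summed CPM (mean with SD over the mice that had at least 20 cells in a cluster) of 6 gene lists in the 9 finer clusters, with cluster 2 in red. Cluster 2 has the tallest bars for both immediate early lists, the second tallest for homeostatic genes (83737 against 95368 CPM in cluster 0) and the shortest for disease-associated genes.

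Set against all other cells of the same mouse, 62 of 8054 genes (0.770%) were higher and 137 (1.70%) lower, by the same measure, and 497 (6.17%) and 605 (7.51%) were higher or lower in every mouse at any size. Cluster 2 had fewer UMIs per cell than the other cells in 16 of 20 mice, and among cells of 5000 to 15000 UMIs 44 genes were lower in place of 137. The highest ratios were those of Klf2 (2.88 ± 0.28), Tsc22d3 (2.41), Egr3 (2.23), Hist1h1c (2.01), Egr1 (1.98 ± 0.54), Jun (1.94), Arrdc3 (1.93), Fos (1.92 ± 0.53), Dusp1 (1.82) and Klf4 (1.81). Immediate early factors were higher for 13 of 16 members and the other immediate early genes for 14 of 22, while the NF-kB list had 4 of 21 higher and 1 lower. The lowest were the proliferation genes Mki67 (-4.17 ± 1.62), Top2a (-3.68) and Pclaf (-3.06), and Spp1 (-3.76), Lgals3 (-3.70), Gpnmb (-3.38), Igf1 (-3.21), Fabp5 (-3.08), Lpl (-2.96) and Gm1673 (-2.83), several of them genes of the disease-associated state.

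Of list members against all other cells, 10 of 25 disease-associated genes, 15 of 20 interferon genes, 4 of 7 MHC genes, 12 of 16 S phase genes and 5 of 5 mitosis genes were lower and none higher (0 in each). No homeostatic gene was higher by that measure (0 of 20, median 0.37). The other cells belonged to different clusters in different groups, and the ratios moved with that. Fos was 2.88 in WT ATV:ISO mice and 1.50 in WT ATV:4D9 mice, 1.83 and 1.80 in AppSAA mice given ATV:ISO and 4D9, and 1.59 with ATV:4D9. P2ry12 was -0.09 in WT ATV:ISO mice, whose other cells were mostly cluster 0, and 1.22 in AppSAA ATV:4D9 mice.

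Groups of mice were compared inside the cluster with edgeR's quasi-likelihood test, with Benjamini-Hochberg adjustment over 11627 genes. P-values measure the spread between mice. AppSAA mice were compared with WT mice under ATV:ISO to ask how cells assigned to the cluster differed by genotype. The cluster held 23.7% of cells in these AppSAA mice against 36.9% in WT mice, and membership rests on genes that include those tested. A change within cells and a change in which cells were assigned cannot be told apart. Of the genes tested, 16 (0.138%) rose and 5 (0.0430%) fell. MHC class I and disease-associated genes stood among those that rose, and no immediate early gene (0 of 19 factors and 0 of 24 others) and no homeostatic gene (0 of 20) passed the test without the pool as a block. H2-K1, an MHC class I heavy chain, had 703 ± 74.9 CPM in AppSAA mice and 487 ± 59.2 in WT mice (log2 fold change 0.56 ± 0.10, SE, adjusted p = 0.0095), and H2-D1 had 1086 ± 136 against 714 ± 64.0 (0.63 ± 0.11, adjusted p = 0.0095). H2-Q7 had 22.4, 22.6, 50.2 and 26.5 CPM against 7.18, 11.8, 15.1 and 18.2, without overlap (1.24 ± 0.23, adjusted p = 0.012). Its near-identical neighbour H2-Q6 had 1.39 ± 0.23 (adjusted p = 0.0045), and reads can be split between the pair, so which of them rose is uncertain.

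Of 25 disease-associated genes 3 rose, Cd52 (566 ± 25.6 against 366 ± 23.1 CPM, log2 fold change 0.66), the chemokine gene Ccl6 (239 ± 19.0 against 157 ± 14.0, 0.63) and the tetraspanin gene Cd9 (1964.5 against 1539, 0.38). The sulfotransferase gene Chst2 (0.89), Fgl2 (0.79) and Cpq (0.75) also rose. Among the genes that fell were Gm42031 (-2.53), Gm43305 (-2.29) and Bank1 (-0.40), and Xist, whose mean rests on the single recorded female. Gm42031 was 16.3, 27.7, 15.5 and 30.3 CPM in WT mice and 1.74, 1.68, 3.06 and 7.51 in AppSAA mice. The fifth was 4930503L19Rik. Fos (log2 fold change 0.24 with the pool as a block, adjusted p = 0.13) did not pass. Without the WT mouse of pool 4 there were 12 calls, all of them rises, 10 without the AppSAA mouse of pool 2 and 8 without that of pool 3. H2-Q6, Ccl6 and Cd52 kept their calls whichever mouse was left out, and the other 10 of 13 genes followed lost them in at least 1 of 8 fits. Cd9 (adjusted p = 0.049) lost it in 8 of 8, and H2-K1, H2-D1 and H2-Q7 each in 1. These fits held no pool block. With the block and all mice, the adjusted p was 0.00017 for Cd9, 1.9e-05 for H2-K1, 1.9e-06 for H2-D1 and 2.5e-06 for H2-Q7. With every sum thinned to the smallest total (357771 UMIs) 1 gene was called. That total was of an AppSAA ATV:4D9 mouse, outside this comparison. Sums held 6.55002e+06 to 1.37121e+07 UMIs in AppSAA and 7.79457e+06 to 1.10951e+07 in WT ATV:ISO mice. Fewer calls after such a loss of counts therefore say nothing on a difference in depth between the groups. With the pool as a block, 192 genes were called (120 up and 72 down), among them 1 of 19 immediate early factors, 1 of 24 other immediate early genes, 7 of 23 NF-kB genes, 9 of 25 disease-associated genes, 11 of 21 interferon genes and 6 of 7 MHC genes up, and 2 of 20 homeostatic genes and 1 of 13 heat shock chaperones down. Summed CPM of the chaperones was 3948, 3872, 3975 and 3718 in AppSAA mice and 4244.5, 4942, 4294 and 4492 in WT mice, without overlap. The part of this difference in the results was not tested.

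ATV:4D9 was compared with ATV:ISO in WT mice to ask how cells assigned to the cluster differed under the brain-penetrant antibody. The cluster held 3.24% of cells in these mice against 36.9% with ATV:ISO, and membership rests on genes that include those tested, so a change within cells and a change in which cells were assigned cannot be told apart, here and in AppSAA mice. In all, 135 genes (1.16%) rose and 37 (0.318%) fell. Immediate early, NF-kB and disease-associated genes rose further in part. Without the pool as a block no homeostatic gene passed the test (0 of 20), and with it 2 rose and 7 fell. The ion transport regulator Fxyd5 had 56.9, 81.7, 71.9 and 66.9 CPM with ATV:4D9 and 25.4, 22.9, 23.4 and 27.7 with ATV:ISO, without overlap (log2 fold change 1.54 ± 0.19, adjusted p = 2.81e-05). Adamts1 had 358, 492, 493 and 421 against 163, 122, 187 and 181 (1.49 ± 0.16, adjusted p = 3.46e-06). G530011O06Rik (1.47), AI506816 (1.38) and Il2rg (1.37), the common gamma chain of cytokine receptors, followed. Genes named as the largest rises and falls were picked among called genes without overlap, so their lack of overlap is no further result. In this comparison 1004 of 11627 genes did not overlap, and 153 of these were called. Genes without overlap were 398 in the genotype comparison and 1121 for ATV:4D9 in AppSAA mice. The largest falls were those of the clock-linked factor Hlf (-1.30), Sema4b (-1.24), Pde2a (-1.21), the lipid receptor gene S1pr1 (-1.09) and Fnip2 (-0.89). S1pr1 had 17.4, 20.6, 23.5 and 31.9 CPM against 48.1, 52.4, 51.8 and 54.5.

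Of the immediate early transcription factors 2 of 19 tested rose, Klf2 (1695 against 1007.5 CPM, log2 fold change 0.81, adjusted p = 0.012) and Atf3 (2138 against 1473, 0.59, adjusted p = 0.013). Fos had a log2 fold change of 0.40 ± 0.16 (adjusted p = 0.25) and Egr1 one of 0.48 (adjusted p = 0.23), and the groups overlapped for both. With the pool as a block the adjusted p was 0.00071 for Fos and 0.016 for Egr1, and 6 of 19 factors were called. Other immediate early genes rose for 6 of 24 members, Gadd45b (1.06), Ier3 (0.85), Socs3 (0.84), Sgk1 (0.79), Ier2 (0.73) and Ppp1r15a (0.56), and 11 with the block. Socs3 had 831, 887, 697 and 820.1 CPM against 570.3, 451, 500.3 and 358. Klf2 and Atf3 each lost the call without 1 of several mice, the WT ATV:4D9 mouse of pool 2 among them (adjusted p = 0.090 and 0.079), while Socs3 and Sgk1 kept it whichever mouse was left out. Gadd45b (adjusted p = 0.049) lost the call in 7 of 8 such fits, Ppp1r15a in 5, Ier2 in 2 and Ier3 in 1. Of the 29 called genes followed in this way, 16 lost the call in at least 1 fit. The fits with a mouse left out held no block. With the block and all mice, the adjusted p was 0.00079 for Gadd45b and 4.2e-05 for Atf3.

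Of the NF-kB list 4 of 23 rose, and 16 with the pool as a block. The cytokine gene Tnf had 389, 311, 452 and 366 CPM with ATV:4D9 and 188, 84.5, 140.3 and 202 with ATV:ISO (log2 fold change 1.35 ± 0.25, adjusted p = 0.0031). Il1a had 641, 597, 824 and 506 against 313, 248, 363 and 279 (1.14 ± 0.15, adjusted p = 4.41e-05). Neither gene overlapped between the groups. Ccl4 (0.73) and Nfkbia (0.61) were the others, and they lost the call in 4 and 6 of 8 fits with 1 mouse left out. Disease-associated genes rose for 5 of 25, Lpl (0.89), Cst7 (0.76), Cd52 (0.74), Ctsz (0.43) and Cd9 (0.43), and for 11 with the block. Cd74, the MHC class II invariant chain, rose (210 ± 37.8 against 90.4 ± 24.4 CPM, 1.27) and was the 1 of 7 MHC genes tested that was called. The replication genes Mcm5 (1.22) and Mcm6 (1.15) were the 2 of 18 S phase genes that rose, and 4 of 13 glycolysis genes rose. Among markers of other cells, Slc1a3 of the astrocyte list fell (97.8 against 148 CPM, -0.54). Ms4a7, 1 of 5 macrophage markers tested and the 1 that was called lower (adjusted p = 0.026), had 2.12 ± 0.293 CPM with ATV:ISO and no UMI (0 CPM) in the 4 ATV:4D9 mice. In those mice 3 UMIs make 2.13 to 4.40 CPM, so the ATV:ISO mean lay under that limit in each of these mice taken alone, and no fold is given. The part of either marker in the results was not tested.

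P2ry12 had 2088, 2166, 2071 and 2227 CPM with ATV:4D9 and 2673, 2771, 2789 and 2625 with ATV:ISO. The groups did not overlap, but the log2 fold change of -0.29 ± 0.08 had an adjusted p of 0.081, and of 0.0019 with the pool as a block. With the block 2 homeostatic genes were called up and 7 down. Over all 11627 genes the block gave 824 calls (502 up and 322 down) in place of 172, and sums thinned to the smallest total gave 66. Without 1 mouse the count was 91 (WT ATV:4D9 pool 1), 97 (WT ATV:4D9 pool 2), 112 (WT ATV:4D9 pool 4) and 112 (WT ATV:ISO pool 2).

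In AppSAA mice, ATV:4D9 against ATV:ISO raised 147 genes (1.26%) and lowered 35 (0.301%). Without the block, interferon genes were the list with the largest share of calls, 16 of 21 up (median log2 fold change 1.26 against -0.01 over all genes). The summed CPM of that list was 1755, 1441, 1180.5 and 1292 with ATV:4D9 and 694, 733, 649 and 576 with ATV:ISO, without overlap. In cluster 0 it was 1538, 1095, 1070 and 1131 against 694, 689, 737 and 626, also without overlap. In the test between clusters 2 and 0 given below, 0 of 21 interferon genes differed in this response, and 1 with the block. Ifi27l2a had 291, 236, 219 and 263 CPM against 71.7, 93.9, 72.6 and 54.6 (1.88 ± 0.19, adjusted p = 2.97e-06). The antiviral membrane protein gene Ifitm3 (1.64), Isg15 (1.51), a ubiquitin-like modifier, and Irf7 (1.43), a factor that amplifies interferon, rose and kept the call whichever mouse was left out. Other rises were those of Slfn5 (2.15), Il1b (1.72) and the chemokine gene Ccl12 (1.67). Il1b had 1534.5, 569, 631 and 515 CPM against 189, 217, 353 and 265, with the mouse of pool 1 far above the rest, and without that mouse the log2 fold change was 1.22 (adjusted p = 0.0039).

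Of the disease-associated list 6 of 25 rose: Cst7 (228 ± 21.8 against 93.8 ± 21.8 CPM, log2 fold change 1.36), the receptor kinase gene Axl (1.30), Apoe (2990 ± 1024 against 1422 ± 279, 1.16), Lpl (0.84), Cd52 (0.78) and Fth1 (0.54). Homeostatic genes fell for 2 of 20. P2ry12 had 1456, 1906.5, 1639.5 and 1739 CPM against 2277, 2365, 2515 and 2625.5, without overlap (-0.44 ± 0.08, adjusted p = 0.0038), and Crybb1 had 162, 201, 166 and 199 against 407, 333, 317 and 295 (-0.77 ± 0.13, adjusted p = 0.0010). Both kept the call whichever mouse was left out, and with the block 6 were called down and 2 up. Abt1 (-0.82), Tmem175 (-0.76), Rnase6 (-0.75) and Cask (-0.70) also fell.

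No immediate early transcription factor was called in this comparison (0 of 19, and 4 with the block, Fos among them at adjusted p = 0.0036). Other immediate early genes rose for 4 of 24, Socs3 (0.93), Ppp1r15a (0.58), Zfp36l1 (0.52) and Btg1 (0.49). Of the NF-kB list Il1b, Il1a (0.92), Icam1 (0.72) and Nfkb2 (0.61) rose (4 of 23). With the block 11 of 24 other immediate early genes, 12 of 23 NF-kB genes and 11 of 25 disease-associated genes were called up, where 446 of all 11627 genes were. Of the 40 called genes followed with 1 mouse left out, 20 lost the call in at least 1 fit, Zfp36l1 and Nfkb2 in 6 of 8 fits, Ppp1r15a in 5 and Btg1 in 4, and Rnase6, Tmem175 and Abt1 in 7, 6 and 5. Those fits held no block. With the block and all mice, the adjusted p was 9.4e-06 for Zfp36l1 and 0.015 for Tmem175. Ribosomal protein genes rose for 14 of 94, and 58 with the block. Of 13 mitochondrially encoded genes 1 rose, mt-Nd5 (0.55), and 12 with the block. Without the block the 13 genes had log2 fold changes of 0.27 to 0.90 (median 0.35). Their summed CPM was 12829, 11880, 19871 and 17958 with ATV:4D9 and 11792, 10599, 14856 and 16082 with ATV:ISO, higher with ATV:4D9 in each pool. Heat shock chaperones had a summed CPM of 5652, 5650, 4222.5 and 3972 against 3948, 3872, 3975 and 3718, also higher in each pool, and 3 of 13 were called up with the block. The part of these shifts in the results was not tested. Over all genes the block gave 622 calls in place of 182, and thinned sums gave 74. The AppSAA ATV:4D9 mice of pools 1 and 3 had 47 and 39 cells in the cluster, and with sums of at least 50 cells, which leaves 2 mice in that group, there were 59 calls. Without the AppSAA ATV:4D9 mouse of pool 1 there were 104 calls, and without that of pool 4 there were 80.

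Unmodified 4D9 against ATV:ISO in AppSAA mice gave 0 calls up (0%) and 0 down (0%). At an unadjusted p under 0.05 there were 79 genes, and DESeq2, limma voom and the block each gave 0 calls. Without any effect a share of 0.05 of the 11627 genes should lie there, which is far more than 79. The test without the block was therefore strict here, and 0 calls do not show that no gene responded. Fos had a log2 fold change of -0.03 with the block. The AppSAA ATV:ISO mice were the controls of both antibody comparisons in AppSAA mice and the comparison group for the genotype, and the WT ATV:ISO mice served in 2 comparisons, so the results are not independent of each other.

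**Figure D5:**
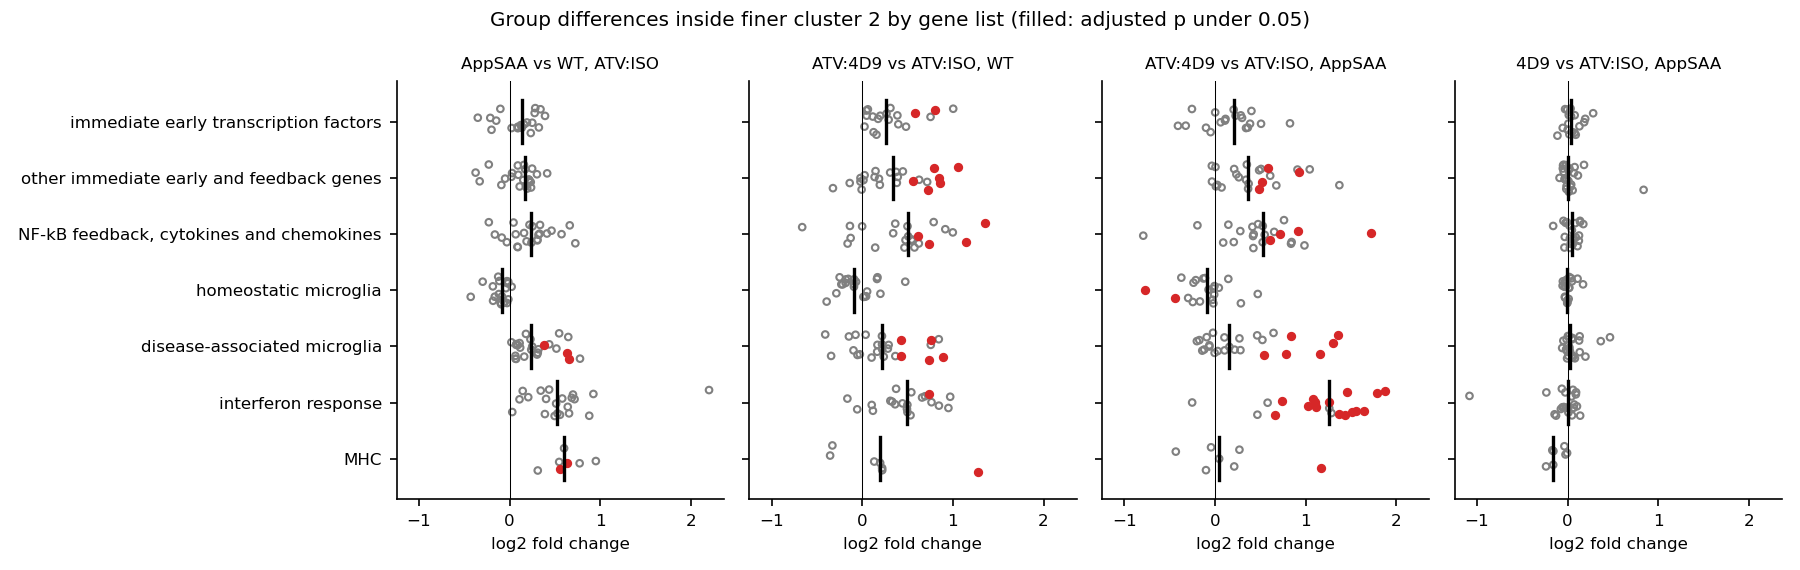
Log2 fold change inside finer cluster 2 in 4 comparisons of groups (4 mice each), 1 point per gene by list, filled where the edgeR adjusted p is under 0.05, with list medians as black bars. Interferon genes lie to the right under ATV:4D9 in AppSAA mice (16 of 21 called) and no gene is filled under 4D9.

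Whether a response differed between cluster 2 and cluster 0 was tested in a joint fit with a term for each mouse, over 12126 genes. Membership of both clusters rests on genes that include those tested. A change within cells and a change in which cells were assigned to either cluster therefore cannot be told apart in these differences. For the AppSAA effect, 0 differences (0%) were above and 8 (0.0660%) were below 0, and 5 of 7 MHC genes were among the 8. The MHC class II gene H2-Aa had 11.2, 15.9, 65.1 and 39.5 CPM in cluster 2 of AppSAA mice and 20.6, 17.9, 130.8 and 62.2 in cluster 0 of the same mice, and the AppSAA effect was smaller in cluster 2 by a log2 difference of -0.87 ± 0.10 (adjusted p = 3.81e-08). H2-Q7 (-0.71), H2-Eb1 (-0.69), Gm43305 (-0.57), Cd74 (-0.54), H2-Ab1 (-0.51), Clec7a (-0.49) and H2-D1 (-0.27) were the others. H2-Aa and H2-Q7 kept the call whichever mouse was left out, without the WT ATV:ISO mouse of pool 4 they were the 2 calls left, and with every sum thinned to the smallest total 0 were called. That total was again of an AppSAA ATV:4D9 mouse, so the 0 calls cannot be told apart from the loss of counts. With the pool as a block 3 differences were above 0, 1 of 24 other immediate early genes and 1 of 23 NF-kB genes among them, and 8 were below.

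For the ATV:4D9 effect in WT mice, 12 differences (0.0990%) were above 0 and 0 (0%) below. The chemokine gene Cxcl10 (0.92 ± 0.20), Adamts1 (0.87 ± 0.19), Hist1h1c (0.84 ± 0.16), Il1a (0.67) and the immediate early factor Klf6 (0.53) rose more, or fell less, in cluster 2 than in cluster 0. Hist1h1c had 388, 551, 873 and 843 CPM with ATV:4D9 and 429, 550.1, 448 and 627 with ATV:ISO in cluster 2, with overlap. Without the WT ATV:4D9 mouse of pool 2 there were 0 calls and without that of pool 3 there was 1. For the ATV:4D9 effect in AppSAA mice, 4 differences (0.0330%) were above 0 and 0 (0%) below: Irf2bpl (0.66), Ccl12 (0.45), the LPS co-receptor gene Cd14 (0.45) and H3f3b (0.44). Cd14 had 1031, 874, 933 and 768 CPM with ATV:4D9 and 620, 669, 642 and 554 with ATV:ISO in cluster 2, without overlap. Without the AppSAA ATV:4D9 mouse of pool 2 there were 0 calls, and limma voom gave 0 calls for both ATV:4D9 differences. With the pool as a block there were 32 calls in WT mice, 30 above 0 and 2 below. Above 0 were 1 of 19 immediate early factors, 5 of 24 other immediate early genes and 7 of 23 NF-kB genes, and 1 of 20 homeostatic genes was below. In AppSAA mice the block gave 14 calls, Egr1 among them (0.62, adjusted p = 0.0048). Inside cluster 2 itself, Egr1 had a log2 fold change of 0.06 with the block (adjusted p = 0.89).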

How the data were processed

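Single-cell RNA-seq of sorted microglia from 20 mice was used, with the mouse, group, pool and cluster of each cell as deposited. Per the labels and methods, the authors used Cell Ranger 6.1.1 with mm10 for alignment and counting, CellPlex tags to separate mice, and Seurat for integration and clusters. Counts were deposited as UMI counts without normalization for 74758 cells and 19737 genes, and every cell was kept. The mitochondrial percent of each cell was deposited by the authors and matched the counts in all 74758 cells. Doublet removal is not given in the sources used here, and no caller was run.

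Counts were summed per mouse and cluster (at least 20 cells). Clusters were described by log2 ratios of TMM-scaled CPM (prior count 2) within mice, for genes of at least 10 CPM. Groups were tested with edgeR 4.0.16 in R 4.3.3 (TMM, filterByExpr, quasi-likelihood, Benjamini-Hochberg, called at 0.05), with all 5 groups in a single fit. Differences from cluster 0 were tested with a term per mouse. DESeq2 1.42.0 and limma 3.58.1 (voom) were alternatives, and the code was tested on simulated data. Pools hold 1 mouse of each group by their labels, and deviations from group means correlated within pools at 0.0411 to 0.456 (34 of 40 pairs over 0.1), so the pool pairs the mice. The methods text read here names no pool term, so the block was an alternative. Fits with 1 mouse left out were run without the block only.

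Named genes were the 4 markers, the 10 highest and lowest ratios at 50 CPM or more, the most abundant list members, and in tests the 5 largest rises and falls without overlap at 10 CPM or more and called list members. The members and the lists were chosen with earlier results of these data known. Some genes that this rule names are not reported here.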

Additional observations from a re-analysis of the deposited data

Results flagged for a closer look

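Tmem119 in the WT ATV:ISO mouse of pool 4, the recorded female, was 1487 CPM in cluster 2, and this value lay apart from those of the other 3 mice of its group. It was 1 of 35 sets of 4 mice looked at, and chance alone gives about 1 in 20.

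The tests of a difference between clusters 2 and 0 passed for MHC genes in the AppSAA effect, with H2-Aa at -0.87, H2-Q7 at -0.71 and H2-Eb1 at -0.69 on the log2 scale. H2-Eb1 lost the call without the WT ATV:ISO mouse of pool 4 or the AppSAA ATV:ISO mouse of pool 3 (adjusted p = 0.60). In the ATV:4D9 effect in WT mice, Cxcl10 (0.92), Adamts1 (0.87) and Hist1h1c (0.84) differed between the clusters. In the ATV:4D9 effect in AppSAA mice, Irf2bpl (0.66), Ccl12 (0.45) and Cd14 (0.45) did.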

How the results depend on the processing

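Counts of called genes moved with the pool block, the choice of clustering, the test and the depth. Directions of called genes did not reverse in any alternative fit that was run, but the order of groups by share did, as given below. The pool pairs the mice, and with it as a block the calls were 192 for AppSAA, 824 for ATV:4D9 in WT and 622 for ATV:4D9 in AppSAA mice, and 11 for the AppSAA difference between clusters and 32 and 14 for the ATV:4D9 differences in WT and AppSAA mice. DESeq2 gave 304 and 297 calls for ATV:4D9 in WT and AppSAA mice, and the coarser cluster gave 717 and 504. With every sum thinned to the smallest total, calls were 1 for AppSAA and 66 and 74 for ATV:4D9 (357771 UMIs), and 0, 3 and 1 for the differences (291284 UMIs). Thinning removed most counts of the ATV:ISO sums, so fewer calls cannot be told apart from lost counts. Without a filter AppSAA had 44 calls, with at least 50 cells a sum ATV:4D9 in AppSAA mice had 59, and at a mean CPM of at least 10 the WT difference had 6. Limma voom gave 3, 0 and 0 differences. With 1 mouse left out and no block, calls ranged from 8 to 19 for AppSAA, 91 to 202 and 80 to 154 for ATV:4D9 in WT and AppSAA mice, and 2 to 9, 0 to 14 and 0 to 7 for the differences.

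Against cluster 0, the number of lower genes was 1 without TMM and 0 to 1 with a pool left out. Against all other cells it was 44 with cells of 5000 to 15000 UMIs. By the coarser cluster the share was 4.56% in WT ATV:4D9 mice and 3.78% in AppSAA ATV:4D9 mice. As a share of clusters 0 and 2 together, cluster 2 was 38.8% in WT ATV:ISO mice and 54.4% in WT ATV:4D9 mice. It was 43.1% in AppSAA mice given ATV:ISO or 4D9 and 49.4% in those given ATV:4D9. By this measure the order of the groups reversed. Means under ATV:4D9 were above those under ATV:ISO, and the AppSAA ATV:ISO mean was above that of WT ATV:ISO mice. Shares of cells without thinning were not among the listed alternatives and were added after seeing the data. Among single genes and shares of cells, 126 values lost the call in an alternative, 10 gained it, 37 values without a test moved by more than the spread between mice and 1328 did none of these. The ATV:4D9 groups had the fewest cells, 39 to 170 a mouse, which limits what could be called there.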
